A study of Brassica oleracea var. italica with 5 samples.

Results

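The euphyllas (first true leaves) and the cotyledons of the same 11 day broccoli sprouts were compared, each as 1 pooled library. Of 19441 unigenes, 16291 (83.8%) had at least 20 reads in both libraries together and were compared, 3150 had fewer, and 609 of these had no read in either library. Both organs came from the broccoli cultivar Qingxiu, with no treatment, grown in peat and vermiculite with nutrient solution under a light and dark cycle. The series also holds seeds and cotyledons of 3 and 7 day sprouts, which are used only to place a value. A library was made from 3 biological replicates mixed in equal weight. No value therefore has a replicate check, and each ratio compares 2 libraries and not 2 conditions.

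Cotyledons are the embryonic leaves. They are laid down in the seed, feed the seedling from stored oil and protein, then turn green and later age and are shed. Euphyllas arise after germination from the shoot apical meristem, and a young euphylla still divides and expands its cells, sets up its upper and lower sides and forms stomata, veins and cuticle, while the cotyledons beside it have finished growing and export sugar to it.

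The euphylla library held 6802615 mapped reads and the 11 day cotyledon library 10312625. Values are the authors' DESeq-normalized signal, in which 1 read is worth 1.16 in euphyllas and 1.07 in cotyledons. A fold is the ratio of the 2 signals, given with an exact 95% interval in parentheses that covers counting error only. A unigene was called higher or lower in euphyllas when the fold was at least 2 and the interval left out 1. For a count of 0 the fold was computed against a floor of 3 reads and is written as "at least". Counts of 2 to 21 reads were even in 67.2% of 3661 cases in euphyllas and in 64% of 3820 in cotyledons. If both mates of a pair were counted, which was not tested, the intervals are too narrow. Unigenes carry the name of their best *Arabidopsis* match, and 5918 of those compared (36.3%) were longer than the matched gene, so that some may join neighbouring genes. Levels are of whole organs, in which fewer cells of a type and less RNA per cell cannot be told apart.

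In euphyllas 3422 unigenes (21%) were called higher and 4290 (26.3%) lower, and 8579 (52.7%) were not called. At least 4-fold differences were found for 1353 higher and 2058 lower unigenes, and at least 32-fold differences for 132 and 215. The median log2 ratio over all compared unigenes was -0.10. The balance depended on the scaling. Total reads in place of the authors' size factors add 0.49 to every log2 ratio, which put the median at 0.38 and turned the share of calls that are higher to 63.9%, with 5256 higher and 2971 lower, against 44.4% with the size factors. All 3422 higher calls and 2971 of the lower calls held under both. Calls of named genes that were lost with total reads are marked where they occur. A percent of reads taken by a list is a share of the library total, and so follows the scaling by total reads.

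**Figure D1:**
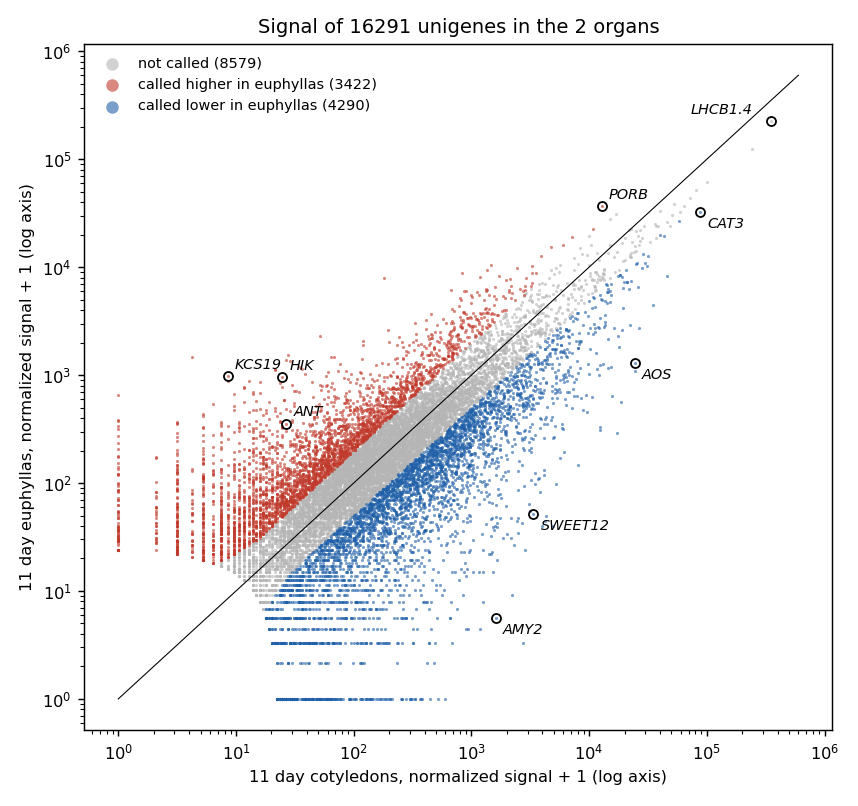
Normalized signal plus 1 of each compared unigene in 11 day euphyllas (vertical, log axis) against 11 day cotyledons (horizontal, log axis), 1 library each, with the line of equal signal. The 3422 unigenes called higher in euphyllas lie above the line and the 4290 called lower lie below it, and *KCS19* and *AMY2* are among the farthest from it.

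Abundant unigenes were more often lower in euphyllas. With 20 to 50 reads, 29.1% were called higher and 28.4% lower, and with 5000 reads or more 10.3% were higher and 41.4% lower. The 2 sides also differed in where else the unigenes were high. Of the 3422 called higher, 1435 (41.9%) had their highest signal of all 5 libraries in euphyllas, 841 (24.6%) in 3 day cotyledons and 792 (23.1%) in seeds. Of the 4290 called lower, 3127 (72.9%) had theirs in 11 day cotyledons.

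By the functional classes of the annotation, translation was the class most often higher in euphyllas, with 197 of 424 unigenes higher and 27 lower (median log2 ratio 0.88). Chromatin followed with 28 of 79 higher and 6 lower. On the other side, inorganic ion metabolism had 27 higher and 109 lower of 261 (median -0.78), signal transduction 105 higher and 278 lower of 694 (median -0.63), and energy production 24 higher and 88 lower of 279 (median -0.54). Of the GO terms, the following were picked for their values. Initiation of DNA replication had 54 of 63 unigenes higher and 0 lower (median 3.08). Callose deposition in defense had 36 of 41 lower and 0 higher (median -2.34), response to fungus 62 of 84 lower and 2 higher, response to chitin 210 of 345 lower and 13 higher, and response to wounding 164 of 268 lower and 12 higher. A unigene may carry several of these terms.

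**Figure D2:**
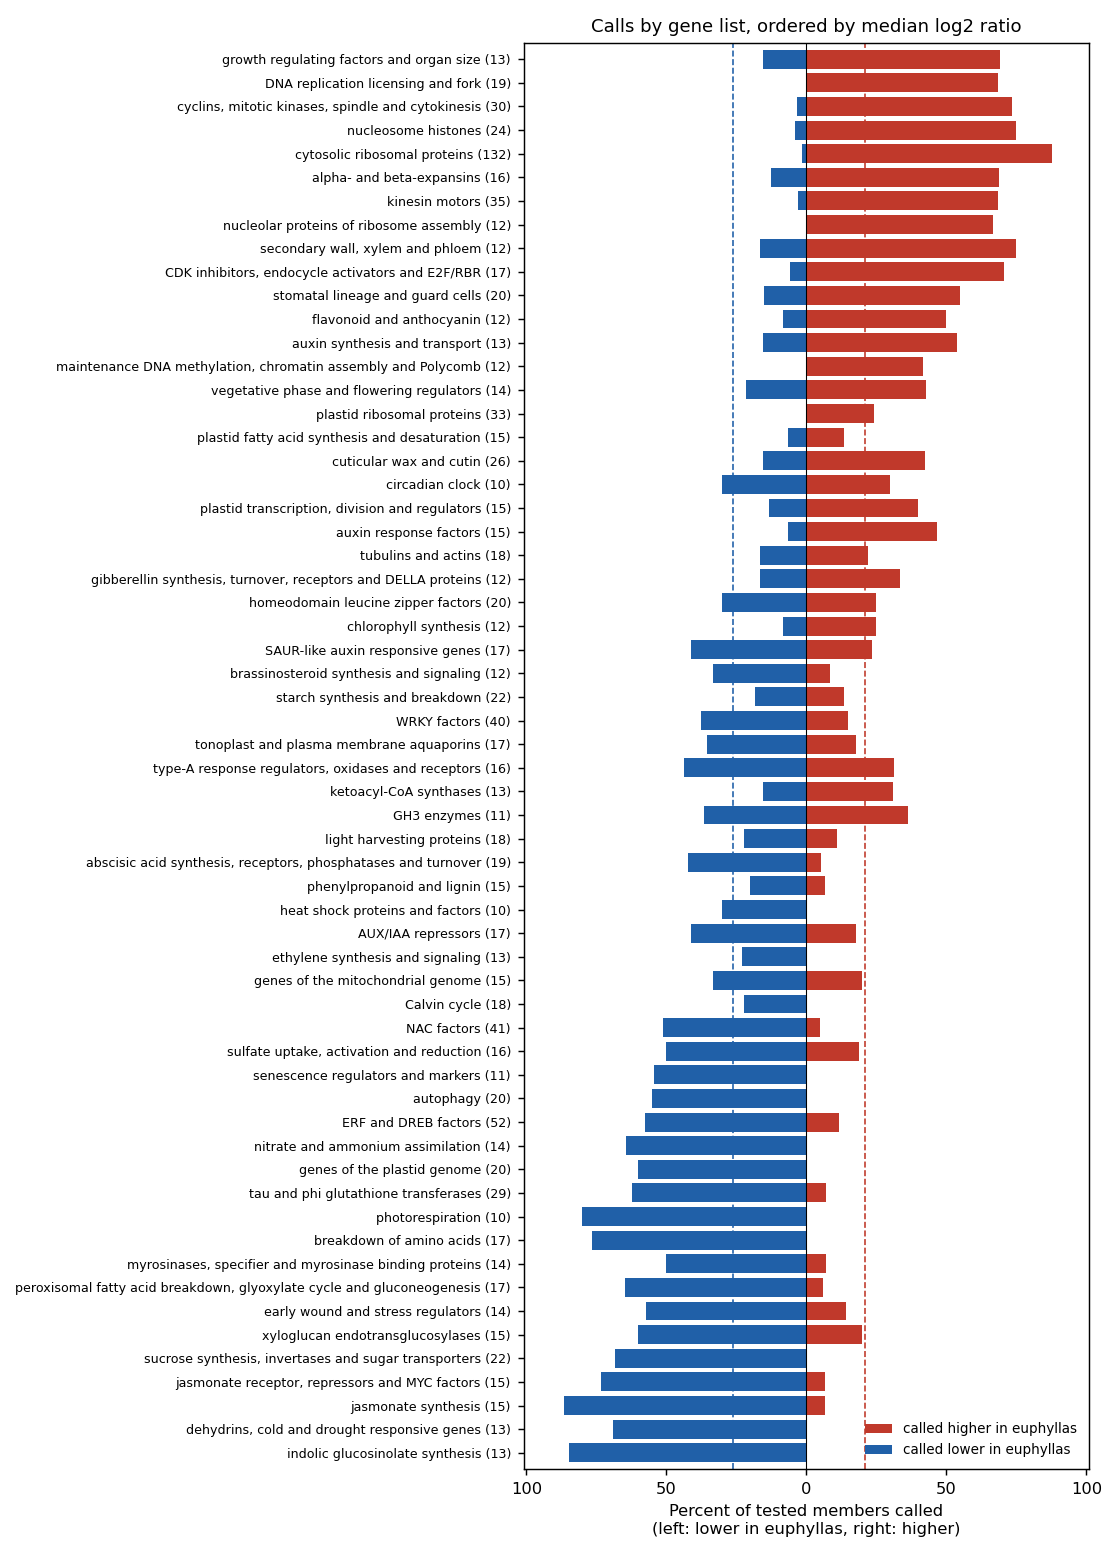
Percent of compared members called higher (right, red) and lower (left, blue) in euphyllas for each gene list with at least 10 compared members (number in parentheses), ordered by median log2 ratio. Dashed lines mark the shares over all compared unigenes, 21% higher and 26.3% lower. Lists of replication, histones, ribosome and expansins stand at the top, and those of indolic glucosinolates, dehydrins and jasmonate at the bottom.

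Proteins of the cytosolic ribosome, which growing cells make in bulk, were mostly higher in euphyllas. Of 132 compared members 116 were called higher and 2 lower (124 and 2 with total reads), with a median log2 ratio of 1.78 and an interquartile range of 1.42 to 2.18. Together they took 3.67% of all reads in euphyllas against 1.0% in 11 day cotyledons, and 1.75% and 5.03% in cotyledons of 7 and 3 days. *RPL37AC* had a signal of 8095 in euphyllas and 1171 in cotyledons, 6.91-fold higher (6.49 to 7.38). *emb2386*, a large subunit protein, had 9794 and 2440 in the same order and *RPL35AA* had 7718 and 2109. *RPL4A* was lower, with 7213 in euphyllas and 20783 in cotyledons, 2.88-fold (2.80 to 2.96). Its unigene was longer than the matched gene, which held for 58 of the 132 compared members, among them *RPL37AC* and *emb2386*. *ATRPS5B* was not called, with 9096 and 11519. Only 1 of the 116 higher members had its highest signal of the 5 libraries in euphyllas, and the others peaked in seeds or 3 day cotyledons. Of 12 nucleolar proteins of ribosome assembly 8 were higher and 0 lower (median 1.67), among them *FIB2*, the fibrillarin that guides rRNA methylation, with 2527 in euphyllas and 656 in cotyledons, and *SWA1* with 358 and 60.0.

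Histones, which package newly made DNA, were higher in 18 of 24 members and lower in 1 (median 2.42). The list took 0.341% of reads in euphyllas and 0.0529% in cotyledons. The histone gene matched to *AT1G07820* had 6197 in euphyllas against 664 in cotyledons, 9.34-fold higher (8.59 to 10.2). *HTB4*, of histone H2B, had 1806 and 756. For 16 of the 18 higher histones euphyllas had the highest signal of all 5 libraries. Enzymes that copy DNA methylation and assemble chromatin behind the fork pointed the same way in the called members. *MET1*, the maintenance methyltransferase, had 957 in euphyllas and 180.1 in cotyledons, *DDM1*, a chromatin remodeler, 230.0 and 30.0, and *FAS1*, of chromatin assembly factor CAF-1, 196 and 12.9. In all 5 of 12 chromatin genes were higher and 0 lower (median 0.80; 9 and 0 with total reads).

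Genes of dividing cells were higher in most members. Of 19 replication genes 13 were higher and 0 lower (median 2.96), of 30 genes of mitosis and cytokinesis 22 were higher and 1 lower (median 2.83), and of 35 kinesins 24 were higher and 1 lower (median 1.68). *TOPII*, the topoisomerase that untangles chromosomes, had 2286 in euphyllas and 50.4 in cotyledons, 45.4-fold higher (34.0 to 61.9). *CDC20.2*, an activator of the anaphase promoting complex, had 1190 and 34.3, and *HIK*, a kinesin of the phragmoplast at which the new cell wall forms, had 949 and 23.59, 40.2-fold higher (26.4 to 64.5). The exceptions were *CYCD3;1*, a cyclin of cell cycle entry, with 958 in euphyllas and 2289 in cotyledons, 2.39-fold lower but not called with total reads, and the kinesin-like *AT5G02370* with 2739 and 16241. Both of these unigenes were longer than their matched genes, which held for 12 of the 30 compared genes of mitosis and cytokinesis and 3 of the 35 kinesins. Counts of members and medians weigh each unigene alike. They do not show that the mitosis or kinesin list took a clearly larger share of reads in euphyllas. The mitosis list took 0.757% in euphyllas and 0.695% in cotyledons, and the kinesin list 0.204% and 0.192%. The summed signal was lower in euphyllas for both, 59507 and 76821 for mitosis and 15999 and 21186 for kinesins. *AT5G02370* alone had more signal in cotyledons than *TOPII*, *CDC20.2* or *HIK* had in euphyllas.

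Cell cycle inhibitors and activators of endoreduplication, with which leaf cells leave division, were listed together with E2F factors, *RBR1* and other regulators. Most members of this mixed list were higher, but the cyclin-dependent kinase inhibitors only in part. Of 17 members 12 were called higher and 1 lower (median 1.45). *CCS52B*, which switches on the anaphase promoting complex, had 1287 in euphyllas and 234 in cotyledons, 5.51-fold higher (4.76 to 6.40), and *RBR1*, the retinoblastoma protein that holds back E2F factors, 411 and 120.1. *E2FA*, such a factor, had 721 and 339. *CCS52A1* had 49.7 in euphyllas and 120.1 in cotyledons, 2.42-fold lower and not called with total reads.

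Growth regulating factors (GRF) keep leaf cells dividing together with their partner *AN3*. Of 13 growth genes compared, 9 were higher and 2 lower (median 3.73; 9 and 0 with total reads), and 4 of the 17 with a unigene had too few reads. *GRF5* had 165 reads in euphyllas and 2 in cotyledons (signals of 190.7 and 2.14), 88.9-fold higher (24.2 to 740.3). *GRF2* had 203 reads against 0, at least 72.9-fold higher. *ANT*, an AP2 factor that prolongs organ growth, had 355 and 25.7, 13.8-fold higher (9.09 to 21.9). The growth restrictor *DA1* had 133 in euphyllas and 297 in cotyledons, 2.24-fold lower and not called with total reads. *AN3* had 30 reads in euphyllas and 0 in cotyledons.

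Regulators of the 2 leaf faces were called higher wherever they were called. All 5 adaxial (upper side) genes were higher (median 2.47), led by *PHB*, a class III homeodomain leucine zipper factor, with 489 in euphyllas and 25.7 in cotyledons, 19.0-fold (12.6 to 30.0). *PHV* had 345 and 59.0, *REV* 313 and 55.7, and *AS2* 37.0 and 6.43. Of 8 abaxial (lower side) genes 5 were higher and 0 lower (median 1.94). *KAN2*, a KANADI factor, had 103 and 15.0, *ARF4* 203 and 39.7, and *ETT* 225 and 76.1. The class II TCP factors, which end division in expanding leaves, were higher in 3 of 7 members and the class I factors in 3 of 9 (4 and 5 with total reads), with 0 lower in both. *TCP4* had 594 in euphyllas and 258 in cotyledons, 2.3-fold higher (1.97 to 2.69), and *TCP15* 181 and 13.9.

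Most markers of the meristem itself were scarce in both organs, but *CLV1* was not. *STM*, *KNAT1*, *KNAT2* and *KNAT6*, which keep the shoot meristem undifferentiated, had 0 reads in either library, and 3 of the 9 members with a unigene could be compared. Of these, *ATH1* had 46 reads in euphyllas and 0 in cotyledons, at least 16.5-fold higher, *PNY* had a signal of 30.0 and 99.7, 3.32-fold lower, and *CLV1* had 490.0 and 1095, 2.23-fold lower but not called with total reads. Of the root markers, *RHD6* and *PLT1* had 0 reads in both libraries and *WOX5* had 6 in euphyllas and 0 in cotyledons, whereas *SCR* (489 in euphyllas and 98.6 in cotyledons) and *SHR* (267 and 32.2), which also act in leaves, were higher. Of 11 genes with a unigene for seed storage proteins, oil bodies and late embryogenesis, 9 had under 20 reads and the other 2 were not called.

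Stomatal genes split by stage. Of 20 members 11 were higher and 3 lower (median 1.24). The genes that were higher act in starting, spacing or dividing the stomatal lineage. *ER*, a receptor kinase of spacing and growth, had 1026 in euphyllas and 37.5 in cotyledons, 27.3-fold (19.5 to 39.5). *SPCH*, the factor that starts the lineage, had 183 and 2.14, 85.1-fold (23.2 to 709), and *MUTE*, which ends its divisions, 40.4 and 9.65. *FAMA*, which acts last, had 181 and 178 and was not called. The 3 lower genes act in finished guard cells or at the last division. *MYB60* had 45.1 in euphyllas and 221 in cotyledons, 4.90-fold lower (3.47 to 7.09), the potassium channel gene *KAT1* had 32.4 and 180.1, and *MYB88* 80.9 and 321. Of 5 genes of leaf hairs, the initiators *EGL3* (201 and 2.14) and *GL3* (78.6 and 4.29) were higher, the inhibitor *TRY* (4.62 and 50.4) was lower, and *TTG1* (419 and 405) and *ZWI* (496 and 423) were not called.

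Genes of the epidermis and its cuticle followed. Of 7 epidermal identity genes 5 were higher and 0 lower (median 1.61). *PDF1*, an epidermal surface protein, had 1384 in euphyllas and 25.7 in cotyledons, 53.8-fold (36.0 to 84.3), and *ATML1*, a homeodomain factor of the outermost layer, had 339 and 76.1. Lipid transfer proteins, which are secreted and bind waxes and other lipids, were higher in 6 of 8 members and lower in 0 (median 3.10), and took 0.132% of reads against 0.0137%. *LP1* had 6031 in euphyllas and 905 in cotyledons, *LTP4* 1529 and 26.8, 57.0-fold (38.5 to 88.5), and *LTP3* 767 and 10.7, 71.6-fold (38.7 to 149.9). These proteins are close copies of each other, and reads may have been split between them.

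Wax and cutin genes were higher in 11 of 26 members and lower in 4 (median 0.51), and euphyllas had the highest signal of all 5 libraries for each of the 11. *CER1*, which makes alkanes with *CER3*, had 4108 in euphyllas and 1297 in cotyledons, 3.17-fold (2.97 to 3.38), and *CER3* 2238 and 240.2, 9.32-fold (8.11 to 10.7). *CER4*, an alcohol-forming reductase, had 2385 and 340. Among the lower members was *CYP86A4*, a cutin hydroxylase, with 310 and 1571. Ketoacyl-CoA synthases, which lengthen fatty acids, moved one by one. Of 13 members 4 were higher and 2 lower (median -0.44; 5 and 1 with total reads), with *KCS14* at 631 in euphyllas and 44.0 in cotyledons and *KCS3* at 25.4 and 113. Plastid fatty acid synthesis had 2 of 15 higher and 1 lower, and 9 and 1 with total reads. Its acetyl-CoA carboxylase subunit gene *CAC2* had 2356 and 1078, 2.19-fold higher (2.03 to 2.36), and *MOD1*, an enoyl reductase, 1639 and 5961, 3.64-fold lower (3.43 to 3.86).

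Genes of wall loosening diverged by family. Expansins, which let walls stretch in acid, were higher in 11 of 16 members and lower in 2 (median 1.73). *EXPA6* had 1167 in euphyllas and 343 in cotyledons, 3.40-fold (3.00 to 3.87), and *EXPB3* 274 and 33.2. *EXPA5*, with 127 and 307, was lower but not called with total reads. Xyloglucan endotransglucosylases (XTH), which cut and rejoin the xyloglucan between cellulose fibrils, were lower in 9 of 15 and higher in 3 (median -1.66). *TCH4*, a member induced by touch, had 1485 in euphyllas and 6398 in cotyledons, 4.31-fold lower (4.06 to 4.58), *XTR3* 58.9 and 885, and *XTH16* 340 and 10.7, 31.7-fold higher (17.0 to 66.8). The cellulose synthases of the primary wall were mostly not called, 0 higher and 2 lower of 9. *CESA1* had 1981 in euphyllas and 2254 in cotyledons and *CESA3* had 2417 and 3851, while *CESA5* was lower with 1060 and 5112. Tubulins and actins gave 4 higher and 3 lower of 18 (6 and 0 with total reads), with *TUB3* at 10338 and 3275 and *ACT2* at 4882 and 13662, the last not called with total reads.

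The vascular list held genes of both xylem and phloem. Of 12 vascular genes 9 were higher and 2 lower (median 1.5). The higher ones act in forming veins and xylem. *CESA7*, a cellulose synthase of the secondary wall, had 238 in euphyllas and 69.7 in cotyledons, 3.42-fold (2.57 to 4.59), *LAC4*, a laccase of lignin formation, 212 and 62.2, and *CNA*, a class III homeodomain leucine zipper factor, 522 and 151. The 2 lower ones belong to phloem. *SUC2*, the sucrose carrier that loads the phloem in *Arabidopsis*, had 117 in euphyllas and 4121 in cotyledons, 35.3-fold lower (29.0 to 43.5), and *APL*, a phloem identity factor, 72.8 and 249.8, 3.43-fold lower (2.59 to 4.61).

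**Figure D3:**
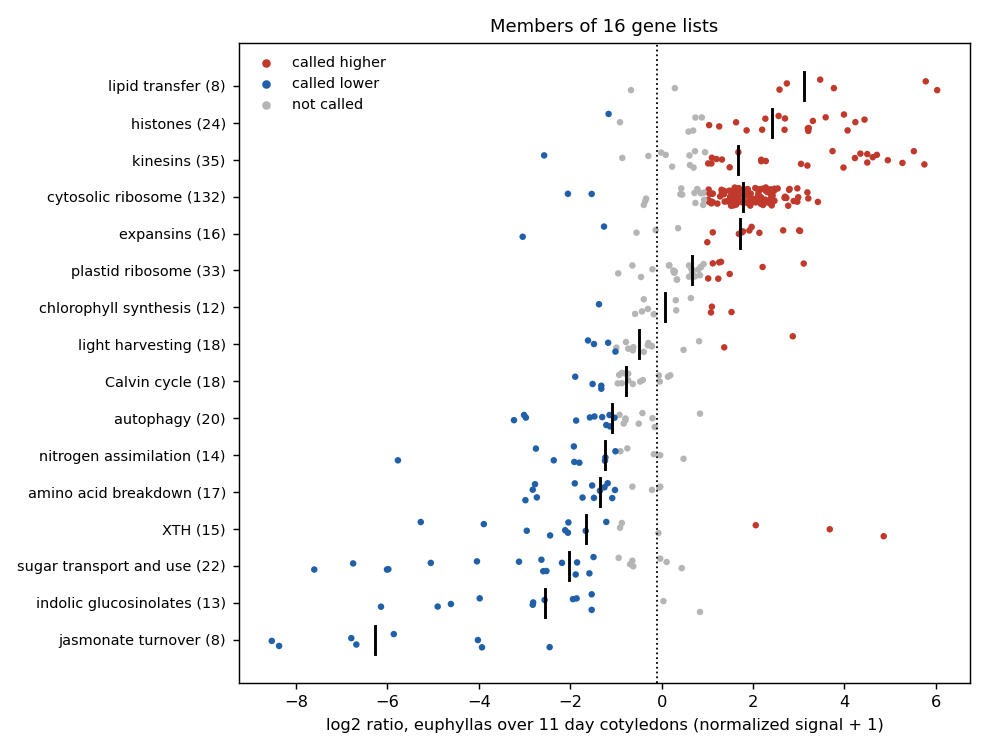
Log2 ratio of normalized signal plus 1, euphyllas over 11 day cotyledons, of each compared member of 16 gene lists (points, 1 unigene each, number in parentheses), with the median of each list (bar) and of all compared unigenes (dotted line, -0.10). Cytosolic ribosomal proteins lie mostly around their median of 1.78, kinesins spread widely, and all 8 members of jasmonate turnover lie below 0.

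Sugar transport and use was lower as a group. Of 22 compared members 15 were called lower and 0 higher (median -2.03), and 13 and 0 with total reads. *SWEET11* and *SWEET12*, which release sucrose from leaf cells to the phloem in *Arabidopsis*, had 41.6 and 50.8 in euphyllas against 2690 and 3347 in 11 day cotyledons, 64.7-fold (46.6 to 92.5) and 65.8-fold (48.9 to 90.8) lower. In 7 day cotyledons they had 1464 and 1116. *SPS4F*, of sucrose synthesis, had 159 in euphyllas and 591 in cotyledons, and the hexose carrier *STP1* had 1317 and 3701, not called with total reads. *SPS1F*, *TMT1* and *TMT2* were not called, with 1277 and 1307, 352 and 259, and 355 and 329. Starch genes gave 3 higher and 4 lower of 22, and 3 and 2 with total reads, so that the balance of the list turned. *SEX4*, a phosphatase of starch breakdown, had 5147 in euphyllas and 1930 in cotyledons, 2.67-fold higher (2.52 to 2.82), *PWD* 3320 and 1494, and *BAM1*, a beta-amylase, 637 and 7959, 12.5-fold lower (11.5 to 13.6).

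Genes of photosynthesis differed less than those of growth. Of 18 light harvesting genes 2 were higher and 4 lower (median -0.51), with 3 and 1 under total reads. These shares, 11.1% higher and 22.2% lower, were below the 21% and 26.3% over all unigenes. The list took 5.85% of reads in euphyllas and 6.68% in cotyledons, and its summed signal was 459724 and 739071. *LHCB1.4*, an antenna protein of photosystem II and the unigene with the highest signal in both organs, had 225505 in euphyllas and 347469 in cotyledons and was not called. *LHCB3* had 7454 and 22690, 3.04-fold lower (2.96 to 3.13), and *LHCA2*, of the photosystem I antenna, 19290 and 43366, not called with total reads. Calvin cycle genes were lower in 4 of 18 and higher in 0 (median -0.77; 2 and 0 with total reads). The lower share of 22.2% was below the 26.3% over all unigenes. *RCA*, the activase of rubisco, had 124806 in euphyllas and 242773 in cotyledons and was not called. *GAPB* had 9815 and 28000, 2.85-fold lower (2.78 to 2.92), and *CP12-2*, which binds it, 2942 and 10924, 3.71-fold lower (3.56 to 3.88).

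Photorespiration, which recovers the product of the oxygenase side reaction of rubisco, stood lower in 8 of 10 members and higher in 0 (median -1.35), but only 4 were called with total reads. *HPR1*, a peroxisomal hydroxypyruvate reductase, had 3073 in euphyllas and 13538 in cotyledons, 4.41-fold lower (4.23 to 4.60), and *SHM1*, a mitochondrial serine hydroxymethyltransferase, 2088 and 8205. *AGT1* (10889 and 29853) and *GOX1* (10838 and 25693) were lower, but were not called with total reads. *CAT3*, a catalase that is no member of the list, had 32239 and 88226, and it was likewise not called with total reads. It was picked for its large difference in signal after its values were seen.

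Genes that build plastids differed by list. Plastid ribosomal proteins were higher in 8 of 33 members, a share near the 21% over all unigenes, and lower in 0 (median 0.67; 21 and 0 with total reads), with 1.23% of reads in euphyllas and 0.567% in cotyledons. *RPL17* had 6739 in euphyllas and 2853 in cotyledons, 2.36-fold (2.26 to 2.47), and *PSRP6* 2479 and 882. Chlorophyll synthesis had 3 of 12 higher, also near that share, and 1 lower (median 0.07). *PORB*, a light-dependent protochlorophyllide reductase, had 36826 in euphyllas and 12784 in cotyledons, 2.88-fold higher (2.82 to 2.94), against 62008 in 3 day cotyledons. *HEMA1*, of the first committed step, had 1056 and 2739 and was not called with total reads. Of 15 genes of plastid transcription, import and division 6 were higher and 2 lower, with *TOC33*, an import receptor, at 1540 and 474, *TOC159* at 5736 and 2209, and *SIG2*, a sigma factor, at 1746 and 6484.

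Transcripts of the plastid genome itself were lower in 12 of 20 members and higher in 0 (median -1.30), for instance *PSBE* with 45.1 in euphyllas and 402 in cotyledons and *ATPB* with 76.3 and 337. They made up 0.0181% of reads in euphyllas and 0.0331% in cotyledons. The libraries were made from RNA captured by its poly-A tail, which most organelle transcripts lack. Transcripts of the mitochondrial genome gave 3 higher and 5 lower of 15 (5 and 5 with total reads), from *ORF111D* with 2096 and 337 to *ORF158* with 46.2 and 2493.

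**Figure D4:**
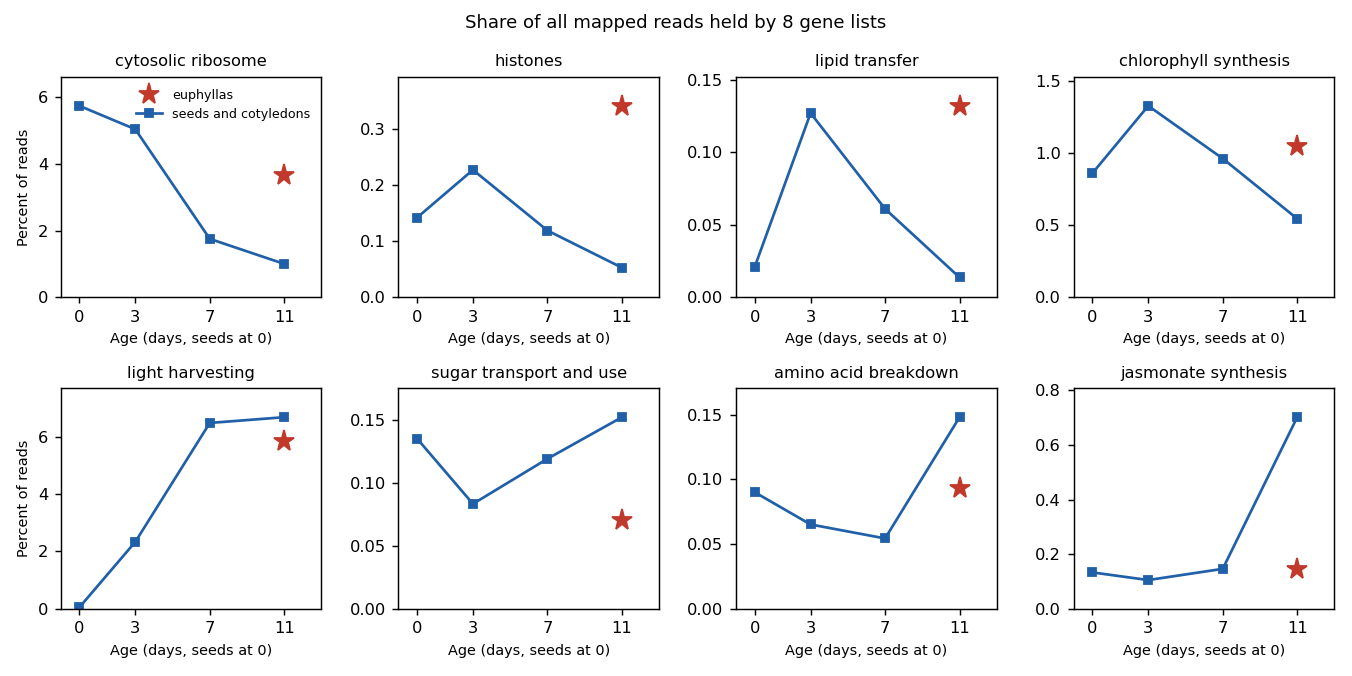
Percent of all mapped reads held by the members of 8 gene lists in euphyllas (star) and in seeds and cotyledons (squares, joined by age in days, seeds at 0). Cytosolic ribosomal proteins held 3.67% in euphyllas and 1.0% in 11 day cotyledons, and jasmonate synthesis 0.146% and 0.702%.

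Genes by which leaves recover carbon and nitrogen from their own material were lower in euphyllas. Amino acid breakdown had 13 of 17 members lower and 0 higher (median -1.35; 7 and 0 with total reads). *P5CDH*, of proline breakdown, had 810.0 in euphyllas and 2681 in cotyledons, 3.31-fold lower (3.04 to 3.61), *GDH2*, a glutamate dehydrogenase, 142 and 972, 6.84-fold lower (5.66 to 8.33), and *IVD*, of leucine breakdown, 839 and 2337, the last not called with total reads. Of 20 autophagy genes 11 were lower and 0 higher (median -1.08; 5 lower and 1 higher with total reads), with *ATG8A* at 116 and 936, 8.10-fold lower (6.58 to 10.1), and *ATG13A* at 297 and 1088. Genes induced by darkness and sugar lack were lower in 6 of 9 (3 with total reads), among them *EXL4* with 202 and 2780 and *DIN10* with 1285 and 3033, the last not called with total reads.

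Senescence and chlorophyll breakdown, which mark ageing leaves, were lower in part. Of 11 senescence genes 6 were lower and 0 higher (median -1.0; 5 and 1 with total reads). *ATAF1*, a NAC factor, had 532 in euphyllas and 3334 in cotyledons, 6.27-fold lower (5.69 to 6.93), and *SEN1* 813 and 2893. Of 7 chlorophyll breakdown genes 3 were lower and 0 higher (2 and 0 with total reads). *PAO*, which opens the ring of the pigment, had 290.0 and 1209, *NYE1*, which removes its magnesium, 116 and 784, and *RCCR* 196 and 499.6, the last not called with total reads.

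Nitrogen assimilation was lower in 9 of 14 members and higher in 0 (median -1.23; 6 and 0 with total reads). The 2 nitrate reductase genes differed greatly in size of effect. *NIA2* had 146 in euphyllas and 8004 in 11 day cotyledons, 55.0-fold lower (46.1 to 66.1), and *NIA1* 6233 and 21724, 3.48-fold lower (3.38 to 3.59). The cytosolic glutamine synthetase gene *GLN1;1* had 916 and 3456, and the glutamate synthase gene *GLU1* 10740 and 25144, not called with total reads.

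Peroxisomal fatty acid breakdown and the glyoxylate cycle, with which oil seedlings turn stored fat into sugar, were lower in 11 of 17 members and higher in 1 (median -1.53). With total reads 9 were lower and 1 higher. The thiolase gene *KAT2* had 1595 in euphyllas and 11479 in cotyledons, 7.20-fold lower (6.81 to 7.62). The 2 defining enzymes of the cycle went opposite ways. *MLS*, malate synthase, had 5420 in euphyllas and 1552 in cotyledons, 3.49-fold higher (3.29 to 3.70), and *ICL*, isocitrate lyase, 335 and 1257, 3.75-fold lower (3.29 to 4.28). Both were far below 3 day cotyledons, which had 23376 and 55713.

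Jasmonate, the hormone of wounding and herbivore defense, was represented by several lists. Of 15 synthesis genes 13 were lower and 1 higher (median -2.14; 10 and 1 with total reads). The list took 0.146% of reads in euphyllas, 0.702% in 11 day cotyledons and 0.146% in 7 day cotyledons. *AOS*, which commits lipid peroxides to the pathway, had 1303 in euphyllas and 24458 in cotyledons, 18.8-fold lower (17.7 to 19.9). *OPCL1* had 1164 and 14440 and *OPR3* 1748 and 10112. In 7 day cotyledons *AOS* stood at 1847 and *OPCL1* at 1037. The exception was the desaturase gene *FAD8* with 216 and 99.7, 2.17-fold higher.

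The enzymes that break down or inactivate jasmonate were lower without exception among those compared. All 8 compared members were lower (median -6.27), and each had its highest signal of the 5 libraries in 11 day cotyledons. *CYP94B1*, which oxidizes jasmonoyl-isoleucine, had 5.78 in euphyllas and 752 in cotyledons, 130.1-fold lower (55.5 to 402). *JOX2*, a jasmonate hydroxylase, had 13.9 and 1525, 109.9-fold lower (62.8 to 213). *ST2A*, a sulfotransferase, had 0 reads in euphyllas and 345 in cotyledons, at least 106.7-fold lower, and *JOX4* had 0 and 308. *IAR3*, an amidohydrolase, had signals of 199.9 and 3054.

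Of 15 genes of jasmonate perception 11 were lower and 1 higher (median -2.03). The repressor genes, which jasmonate itself induces, led the list. *JAZ1* had 626 in euphyllas and 10580 in cotyledons, 16.9-fold lower (15.5 to 18.5), and *JAZ9* 317 and 5998, 18.9-fold lower (16.8 to 21.5). The receptor gene *COI1* had 260.0 and 232 and was not called. *MYC2*, the factor that switches on the response, had 437 and 2305, whereas its relative *MYC4* had 136 and 17.2, 7.95-fold higher. Among 6 response genes 4 were lower and 1 higher. *VSP1*, a vegetative storage protein, had 743 in euphyllas and 5126 in cotyledons, *TAT3*, a tyrosine aminotransferase, 128 and 2499, 19.5-fold lower (16.1 to 23.8), and *CLH1*, a chlorophyllase, 393 and 67.5, 5.82-fold higher (4.43 to 7.74).

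Early regulators of wounding and stress were lower in 8 of 14 members and higher in 2 (median -1.64; 7 and 2 with total reads). *MPK3*, a stress kinase, had 2467 in euphyllas and 9724 in cotyledons, 3.94-fold lower (3.76 to 4.13), and *ERF109* 2728 and 10253. Factor families shared this direction to different degrees. NAC factors were lower in 21 of 41 and higher in 2 (median -0.99; 16 and 6 with total reads), ERF and DREB factors lower in 30 of 52 and higher in 6 (median -1.13; 18 and 8 with total reads), and WRKY factors lower in 15 of 40 and higher in 6 (median -0.38; 14 and 12 with total reads). *ANAC019* had 43.9 and 4188, 95.4-fold lower (69.4 to 135). *WRKY40* had 624 and 3051. *ERF105* was higher with 2074 in euphyllas and 118 in cotyledons, 17.59-fold higher (14.5 to 21.5).

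Abscisic acid, the hormone of drought, closes stomata and induces protective proteins. Of 19 genes of its synthesis, perception and turnover 8 were lower and 1 higher (median -0.54; 7 and 3 with total reads). *NCED3*, of the step that limits its synthesis, had 72.8 in euphyllas and 447 in cotyledons, 6.14-fold lower (4.70 to 8.14). *ABA1* had 2497 and 11125, *ABA2* 186 and 982, and *CYP707A1*, which breaks the hormone down, 308 and 1102. Most receptors and downstream kinases were not called, such as *PYR1* with 322 and 468 and *OST1* with 113 and 110.4. The receptor *PYL6* was higher with 194 and 64.3. Dehydrins and other drought genes were lower in 9 of 13 and higher in 0 (median -2.45; 7 and 1 with total reads). *ERD10*, a dehydrin, had 222 and 1736, 7.82-fold lower (6.73 to 9.13), and *ATHB7*, a homeodomain leucine zipper factor induced by drought, 93.6 and 1295, 13.8-fold lower (11.0 to 17.55).

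Other stress lists were mixed or small. Tau and phi glutathione transferases were lower in 18 of 29 members and higher in 2 (13 and 5 with total reads), for example *GSTU13* with 475 and 2815. Heat shock genes were lower in 3 of 10, a share near the 26.3% over all unigenes, and higher in 0. *HSP17.6A* had 0 reads in euphyllas and 54 in cotyledons. Of 6 compared salicylate genes *PR2*, a glucanase, was lower with 299 and 1787, 5.97-fold (5.24 to 6.83), and *ICS1*, of salicylate synthesis, was not called with 401 and 329. *PR1* had 5 and 2 reads.

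Glucosinolates are the sulfur compounds by which broccoli and its relatives repel herbivores. They are made from methionine (aliphatic) or tryptophan (indolic), share their last steps, and are cleaved by myrosinases when tissue is damaged. The 2 branches differed. Indolic synthesis was lower in 11 of 13 members and higher in 0 (median -2.56), while aliphatic synthesis had 4 of 9 higher and 1 lower (median 0.49). *CYP83B1*, of the indolic core, had 480 in euphyllas and 3387 in cotyledons, 7.06-fold lower (6.37 to 7.84), *CYP79B2*, the entry enzyme from tryptophan, 146 and 1029, and *CYP79B3* 18.5 and 307. The methyltransferase gene *IGMT1*, of late side chain changes, had 27.7 and 700.1, 25.2-fold lower (16.8 to 39.7), and *CYP81F2*, which hydroxylates the indole ring, 2.31 and 233. The regulators *MYB34* (69.3 and 202) and *MYB51* (33.5 and 132) were lower as well. The study applied an identity cutoff and reported only *MYB29* and *MYB51* as detected regulators. It did not detect *CYP81F2*, *IGMT2* or *UGT74B1*. Here these genes and *MYB34* are named by best match alone, without that cutoff. *GSTF9* and *GSTF10*, neighbours in *Arabidopsis* with 1264 and 1062 in euphyllas and 4594 and 3071 in cotyledons, are alike in sequence and reads may be shared between them.

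On the aliphatic side *CYP83A1*, of the core, had 428 in euphyllas and 345 in cotyledons and *BCAT3* 678 and 482, and neither was called. The regulator *MYB28* had 107 and 4.29, 25.1-fold higher (9.46 to 93.9), with 102 and 107 in cotyledons of 7 and 3 days. The study did not report *MYB28* as detected, and its name here rests on the best match alone. *GSTF11* had 71.6 and 2.14, 33.4-fold higher (8.87 to 282). *IPMI_SSU2*, of chain elongation, had 18 reads in euphyllas and 5 in cotyledons, and *FMO_GSOX5*, which oxidizes the side chain, 16 and 6, which are few. *SOT17*, a sulfotransferase of the last step, was the exception with 117 and 1628, 13.9-fold lower (11.4 to 17.2).

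**Figure D5:**
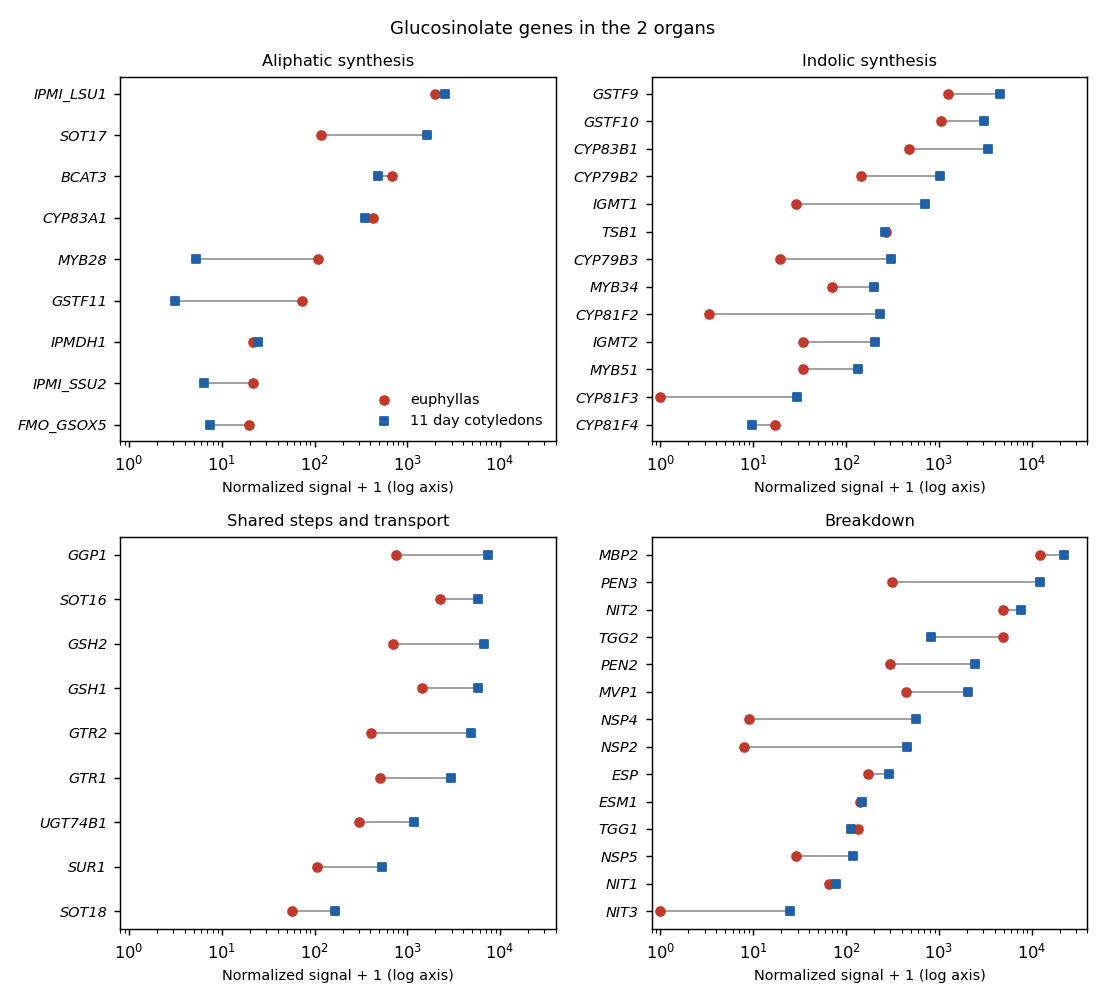
Normalized signal plus 1 (log axis) of each compared glucosinolate gene in euphyllas (circles) and 11 day cotyledons (squares), joined by a line, 1 library each. In the indolic and shared panels the circle lies left of the square for all called genes, and in the aliphatic panel *MYB28* and *GSTF11* lie right of it and *SOT17* left.

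All 9 genes of shared steps, glutathione supply and transport were lower (median -2.35; 8 with total reads), and each peaked in 11 day cotyledons among the 5 libraries. *GGP1*, which trims the glutathione conjugate, had 746 in euphyllas and 7330 in cotyledons, 9.82-fold lower (9.06 to 10.7). The transporter genes *GTR2* and *GTR1*, which carry glucosinolates into the phloem in *Arabidopsis*, had 409 and 512 in euphyllas and 4877 and 2926 in cotyledons, 11.9-fold (10.7 to 13.3) and 5.72-fold (5.17 to 6.33) lower. *SOT16* had 2274 and 5762 and was not called with total reads.

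Genes of breakdown were lower in 7 of 14 members and higher in 1 (median -1.45). *TGG2*, a myrosinase, had 4958 in euphyllas and 818 in cotyledons, 6.06-fold higher (5.61 to 6.55), and *TGG1* had 133 and 112 and was not called. *PEN2*, an atypical myrosinase of the defense against fungi, had 295 and 2437, 8.27-fold lower (7.26 to 9.45), and *PEN3*, the transporter that works with it, 310 and 12346, 39.9-fold lower (35.3 to 45.2). The nitrile specifier genes *NSP4* and *NSP2*, which divert the products from isothiocyanates, had 8.09 and 6.93 in euphyllas and 562 and 451 in cotyledons, 69.5-fold (33.5 to 173.6) and 65.1-fold (29.7 to 178) lower. Their unigenes were 4237 and 4249 bp long, both longer than the matched gene, with a signal of 7.78 each in seeds. Whether they share reads was not tested. The epithiospecifier gene *ESP* (172 and 292) and the epithiospecifier modifier gene *ESM1* (139.8 and 147) were not called. *ESM1* stood at 16886 in 3 day cotyledons.

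ER bodies, which store beta-glucosidases in Brassicales, gave 2 higher and 2 lower of 6 (2 and 1 with total reads). *NAI1*, the factor needed to form them, had 76.3 in euphyllas and 1667 in cotyledons, 21.9-fold lower (17.1 to 28.4), whereas *BGLU18*, a glucosidase stored there, had 638 and 266. Sulfate uptake and reduction, which feed glucosinolate and cysteine synthesis, were lower in 8 of 16 and higher in 3 (5 and 3 with total reads). *APS3*, an ATP sulfurylase, had 391 and 4214, 10.8-fold lower (9.65 to 12.1), *APK1*, which makes the sulfate donor for glucosinolates, 185 and 747, and *APR2*, of the reductive branch, 1201 and 549, 2.19-fold higher (1.97 to 2.44).

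Auxin, which patterns leaves and veins through directed transport, was represented by 13 genes of synthesis and transport, of which 7 were higher and 2 lower (median 1.08). *PIN7*, an efflux carrier, had 548 in euphyllas and 81.5 in cotyledons, 6.72-fold higher (5.27 to 8.68), and *ABCB1* had 728 and 253. *TAA1*, of synthesis, had 485 and 1503, 3.10-fold lower (2.77 to 3.46). Auxin response factors were higher in 7 of 15 and lower in 1, with *ARF6* at 626 and 118. Families with members that auxin induces gave no common direction as lists. AUX/IAA repressors had 3 higher and 7 lower of 17, and 5 and 4 with total reads, SAUR-like genes 4 and 7 of 17, and 6 and 5 with total reads, and GH3 enzymes 4 and 4 of 11, and 4 and 2 with total reads. *IAA19* had 95.9 and 328 and *DFL2*, a GH3 enzyme, 326 and 3121. The GH3 list also holds *JAR1* (199.9 and 856, called lower), which is a member of the jasmonate synthesis list. Whether auxin induces each member of these lists was not tested.

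Cytokinin genes had no common direction. Of 16 members 5 were higher and 7 lower. *CKX6* and *CKX5*, oxidases that destroy the hormone, had 34.7 and 46.2 in euphyllas and 850.2 and 754 in cotyledons, 24.5-fold (17.0 to 36.6) and 16.3-fold (11.9 to 23.02) lower. The activating enzyme gene *LOG7* had 33.5 and 747, and the receptor gene *AHK4* 513 and 188, 2.73-fold higher (2.29 to 3.28). Of 12 gibberellin genes 4 were higher and 2 lower, with *GA2OX6*, which inactivates the hormone, at 48.5 and 964, 19.9-fold lower (14.6 to 27.8), and the DELLA repressor *RGL1* at 103 and 36.5. Of 12 brassinosteroid genes 1 was higher and 4 lower (2 and 3 with total reads). *BIN2*, a kinase that blocks the pathway, had 953 and 189.8, 5.02-fold higher (4.27 to 5.94), and *ROT3*, of synthesis, 2.31 and 93.3. Ethylene genes were lower in 3 of 13 and higher in 0 (1 and 2 with total reads), a lower share of 23.1% against 26.3% over all unigenes.

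Homeodomain leucine zipper factors had 5 higher and 6 lower of 20, and 7 and 6 with total reads. *HB-2*, a factor of the shade response, had 176 in euphyllas and 794 in cotyledons, and *HAT1*, of the same class, 170 and 21.4. Genes of the juvenile phase and of flowering were higher in 6 of 14 and lower in 3 (7 and 1 with total reads). *SPL11*, a factor of the adult phase, had 342 and 80.4, 4.25-fold higher (3.29 to 5.56), and *SOC1*, which promotes flowering, 20.8 and 175, 8.4-fold lower (5.15 to 14.5).

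Clock genes had no common direction. Of 10 members 3 were higher and 3 lower (5 and 3 with total reads). *CCA1*, a dawn gene, had 30.0 in euphyllas and 147 in cotyledons, 4.89-fold lower (3.20 to 7.75), *LHY* had 0 reads and 71, at least 22.0-fold lower, and *PRR9* 0 and 74. The evening genes *TOC1* (990.3 and 467) and *PRR5* (596 and 250) were higher, 2.12-fold (1.89 to 2.38) and 2.39-fold (2.04 to 2.80). *GI* (1379 and 1304) and *PRR7* (2012 and 2070) were not called. In 7 day cotyledons *LHY* and *CCA1* stood at 2690 and 2250 and *TOC1* at 0, and a difference in hour of harvest between organs was not tested.

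Flavonoid and anthocyanin genes were higher in 6 of 12 members and lower in 1 (median 1.23), at low levels. *CHS*, the first enzyme, had 289 in euphyllas and 81.5 in cotyledons, 3.55-fold (2.73 to 4.65), against 7113 in 3 day cotyledons, and its regulator *MYB111* had 112 and 4.29, 26.1-fold (9.89 to 97.8). *F3H* had 106 and 225 and was lower, though not with total reads. Of the general phenylpropanoid pathway, *PAL1* had 326 in euphyllas and 1427 in cotyledons, *PAL2* 629 and 2274 and *C4H* 141 and 557, and all were lower. *PAL4* (265 and 422) and *4CL1* (362 and 621) were not called, and *4CL3* (34.7 and 10.7) was higher. The phenylpropanoid list as a whole gave 1 higher and 3 lower of 15, and 5 and 3 with total reads.

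Aquaporins, the water channels of expanding and transpiring cells, were lower in 6 of 17 and higher in 3 (median -0.39). *PIP2A* had 685 in euphyllas, 5091 in 11 day cotyledons and 13380 in 7 day cotyledons, 7.43-fold lower (6.82 to 8.10) in euphyllas than in cotyledons of their age. *PIP2B* had 1766 and 8070 and the tonoplast channel gene *GAMMA-TIP* 1254 and 5569. *TMP-C*, another channel of the plasma membrane, had 1703 and 661 and was higher.

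Of the unigenes with at least 200 reads, those with the 10 largest folds in each direction were as follows. Higher in euphyllas were *AEE4*, an acyl-activating enzyme, with 1262 reads against 3, 453-fold (155 to 2201), and *CYP77B1*, a cytochrome P450, with 569 reads against 0, at least 204-fold. *KCS19*, of very long chain fatty acids, had 844 reads against 7. *AT3G44050*, described as a nucleotide-binding protein, had 320 reads against 2, 172-fold (47.4 to 1430), and *ATPS1*, a protein with a forkhead-associated domain, 229 against 2. *AGL19*, a MADS factor of flowering, had 312 reads against 2, 168-fold (46.2 to 1394). *AT5G48490* and *AT1G62500*, both of the family of lipid transfer proteins and seed albumins, had 334 against 0 and 764 against 7. The other 2 of the first 10 were *AT4G36180*, a receptor-like kinase, with 253 reads against 2 and *AT3G03130*, of unknown function, with 305 against 2. Of these 10, *AT1G62500* had its highest signal of the 5 libraries in seeds (1129), above euphyllas (883).

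Lower in euphyllas by the largest folds was *AT4G15610*, of an uncharacterised membrane protein family, with 2 reads in euphyllas and 2575 in cotyledons, 1195-fold (330.4 to 9869). Its signal was 11.6 in 7 day cotyledons. *CEN2*, a centrin, had 1 read against 444, 412-fold (73.6 to 16308). *AT4G20860*, a berberine-type oxidase, had 3 reads against 1107, 342-fold (117 to 1663), and *HEL*, a chitin-binding pathogenesis protein, 2 against 632. *AT3G44870*, a methyltransferase of the type that acts on small acids, had 7 reads against 2077, 275-fold (133 to 686). *MSS1*, a hexose carrier, had 1 read against 216. *AMY2* had 4 against 1493, *AT5G28010*, of a lipid-binding family, 3 against 879, *AT1G61360*, a lectin receptor kinase, 3 against 837, and *AT4G18540*, of unknown function, 2 against 455. In 9 of these 10 genes 11 day cotyledons had the highest signal of the 5 libraries, the exception being *MSS1* with 340 in seeds.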

How the data were processed

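Messenger RNA of 5 pooled libraries was sequenced on an Illumina MiSeq. Per the labels and the study's methods, the authors assembled unigenes with Velvet and Oases, mapped reads with Bowtie and normalized with DESeq, whose versions the sources used here do not give. Raw read counts per unigene were deposited by the authors, as was the normalized signal, which is the count divided by the DESeq size factor of the library. Annotation came from the deposited annotation table, by best *Arabidopsis* match. The authors' fold changes, p-values and false discovery rates, and 20 RPKM columns, were not used, nor were other deposited tables beyond the counts and signal of the other 3 libraries.

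Depth was 6802615 reads in euphyllas and 10312625 in 11 day cotyledons. With 1 library a side, no test was run. Exact binomial (Clopper-Pearson) 95% intervals cover counting error only, and reads are not independent molecules. Log2 ratios used a pseudocount of 1. Python 3.11.15 with numpy 2.4.6, pandas 2.3.3 and scipy 1.17.1 was used, and R 4.3.3 with edgeR 4.0.16 for TMM factors only. The procedure was tested on simulated data. Alternatives were other scalings, read minimums, fold limits, interval levels and pseudocounts, halved counts, and leaving out unigenes longer than their match.

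The members and the 79 gene lists were chosen with earlier results of these data known. Misnamed members that were noticed were taken out of lists after the files were read, but *ARF3* was left in. Named were the 10 called unigenes of largest fold in each direction with at least 200 reads, the 4 called members with most reads in each list, the 2 uncalled ones with most reads where a list did not move, any member of a list of 10 or fewer, and glucosinolate genes the study names. Chosen after their values were seen were *4CL1*, *4CL3*, *AN3*, *APK1*, *ARF3*, *ARF32*, *ATRPS5B*, *CAT3*, *COI1*, *CYP79B3*, *CYP81F2*, *ERF105*, *ESM1*, *ESP*, *EXPB3*, *FAD8*, *GDH2*, *GLN1;1*, *HAT1*, *ICL*, *IGMT1*, *JAR1*, *KAT1*, *LAC4*, *MUTE*, *MYB34*, *MYB51*, *MYB60*, *MYC2*, *MYC4*, *NCED3*, *NSP2*, *NSP4*, *OST1*, *PAL4*, *PSRP6*, *PYL6*, *RPL37AC*, *SPCH*, *TGG1*, *TMP-C*, *TMT1*, *TMT2* and *TOC33*.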

Additional observations from a re-analysis of the deposited data

How the results depend on the processing

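No paired analysis was possible because each organ had 1 library. Scaling by total reads gave 5256 higher calls and a median log2 ratio of 0.38, and scaling by the upper quartile a median of 0.15. A minimum of 100 reads left 2254 higher calls, a limit of 4-fold 1353 higher and 2058 lower, and leaving out unigenes longer than their match 2148 higher and 2515 lower, from fewer unigenes compared in the first and last case. The other alternatives (TMM, no minimum, 99% intervals, halved counts, a pseudocount of 10) moved neither count of calls by 1.5 times. Of 79 lists under 10 alternatives, 14 turned in balance at least once. As higher minus lower calls, the values were with total reads 2 for light harvesting, 2 for phenylpropanoids, and 1 each for AUX/IAA, SAUR-like, ethylene, starch and homeodomain leucine zipper genes. With the upper quartile they were 1 each for light harvesting, starch and homeodomain leucine zipper genes, and with the 4-fold limit 1 for meristem genes, 1 for light harvesting and -1 for vascular genes. With 100 reads they were -2 for phase genes and -1 for aliphatic glucosinolates. Without unigenes longer than their match they were -1 for the cytoskeleton, -1 for ketoacyl-CoA synthases, 1 for phenylpropanoids, 2 for SAUR-like genes and 1 for cytokinin. The cause was not tested. Low counts limit folds of genes with few reads in 1 organ, as their intervals show.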
